A study of Mus musculus with 24 samples.

Results

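The 42 genes described here encode the machinery of mitosis: regulators of entry into division, mitotic kinases, centromere and kinetochore proteins, spindle motors and midzone proteins, condensin, the chromosomal passenger complex, cytokinesis factors and activators of the anaphase promoting complex. They were chosen by gene symbol from a fixed list, and all 42 were found among the 53392 genes in the files. Poly(A) RNA-seq was used to compare mouse muscle stem cells (MuSCs) and their progeny between dystrophin-deficient *mdx* mice, a model of Duchenne muscular dystrophy, and wild type (WT) mice. There were 24 libraries in 8 groups of 3. MuSCs of both genotypes were either freshly isolated from uninjured muscle (FiMuSCs) or isolated 3 days after an intramuscular injection of 10 µM cardiotoxin, a toxin that destroys myofibres (AMuSCs). Primary myoblasts were grown in medium with 20% fetal bovine serum, and myotubes were made from such cells by 2 days in medium with 5% horse serum.

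The WT groups had the genotype Pax7-nGFP and the *mdx* groups mdx.Pax7-nGFP, so all 8 groups carried a nuclear GFP reporter driven by Pax7, the transcription factor that marks MuSCs. The *mdx* allele is a point mutation of Dmd, which encodes dystrophin. MuSCs were sorted as GFP+ and ITGA7+ cells that lacked CD31, CD45, SCA1 and CD11b, whereas myoblasts were purified with magnetic beads and cultured. The sorted cells and the cultured cells were extracted with different RNA kits, so that kit and culture cannot be told apart. The ages of the mice used for these libraries, and whether animals were pooled, were not given in the sources used here.

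The labels were checked against marker genes. Pax7 had a mean level of 1604 CPM (counts scaled to the library size adjusted by TMM, a normalisation factor) in WT FiMuSCs and 1743 CPM in *mdx* FiMuSCs, and of 22.0 and 27.2 CPM in the corresponding myotubes. Myog, which encodes the differentiation factor myogenin, reached 1385 CPM in WT and 1674 CPM in *mdx* myotubes. Dmd was at 215 CPM in WT and 41.8 CPM in *mdx* myotubes, and at 249 and 146 CPM in FiMuSCs. In AMuSCs, where Dmd was low, it averaged 18.0 CPM in WT and 24.7 CPM in *mdx*. Library totals ranged from 37280196 to 64429222 estimated counts. Markers of other cell types also differed between groups and libraries, and their values are given beside the results they move with.

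As background, a quiescent MuSC sits outside the cell cycle. After injury it enters the cycle and divides, and its progeny leave the cycle again when they fuse into myotubes. Most of the genes described here are transcribed mainly in G2 and M phase. In resting cells their promoters are bound by the repressive DREAM complex, and in dividing cells by the MuvB core with B-MYB (encoded by Mybl2) and FOXM1, through a promoter element called the cell cycle genes homology region (CHR), often found near CCAAT boxes that bind the factor NF-Y. In a bulk library a lower level of such a gene can come from fewer dividing cells or from less RNA in each of them, and these cannot be told apart.

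Promoter sequences from RefSeq (GRCm38.p6) are shown because the 42 genes moved together and the elements named above are short enough to be seen in the letters. Of the 42 genes, 35 had a promoter entry, with 37 promoters between them. Each line gives the 250 bases before the annotated start, on the strand of the gene, 5′ to 3′. Capitals mark CHR matches (TTTGAA or TTCGAA) and CCAAT matches (CCAAT) on either strand.
Mki67, chr7:135716380-135716629, minus strand: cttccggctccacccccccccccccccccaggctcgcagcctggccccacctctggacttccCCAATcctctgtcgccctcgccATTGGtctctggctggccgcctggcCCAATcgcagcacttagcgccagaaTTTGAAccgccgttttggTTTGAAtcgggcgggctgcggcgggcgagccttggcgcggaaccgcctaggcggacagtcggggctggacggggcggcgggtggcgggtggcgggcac
Top2a, chr11:99024190-99024439, minus strand: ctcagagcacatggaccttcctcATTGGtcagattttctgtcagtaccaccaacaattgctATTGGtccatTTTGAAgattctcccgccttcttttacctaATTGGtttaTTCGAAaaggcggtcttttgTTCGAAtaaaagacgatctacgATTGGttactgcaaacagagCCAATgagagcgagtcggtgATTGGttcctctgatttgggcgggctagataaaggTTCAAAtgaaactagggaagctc
Ccnb2, chr9:70421555-70421804, minus strand: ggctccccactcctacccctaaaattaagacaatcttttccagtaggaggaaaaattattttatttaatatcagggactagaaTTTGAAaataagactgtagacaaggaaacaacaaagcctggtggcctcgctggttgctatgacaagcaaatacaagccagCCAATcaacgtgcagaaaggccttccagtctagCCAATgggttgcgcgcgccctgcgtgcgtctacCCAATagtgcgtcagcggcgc
Kif11, chr19:37376132-37376381, plus strand: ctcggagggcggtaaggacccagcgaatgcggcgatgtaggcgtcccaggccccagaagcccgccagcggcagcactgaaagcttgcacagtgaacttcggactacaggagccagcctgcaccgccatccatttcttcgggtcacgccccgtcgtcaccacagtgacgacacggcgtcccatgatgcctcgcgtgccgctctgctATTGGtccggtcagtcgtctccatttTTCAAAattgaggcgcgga
Smc2, chr4:52438971-52439220, plus strand: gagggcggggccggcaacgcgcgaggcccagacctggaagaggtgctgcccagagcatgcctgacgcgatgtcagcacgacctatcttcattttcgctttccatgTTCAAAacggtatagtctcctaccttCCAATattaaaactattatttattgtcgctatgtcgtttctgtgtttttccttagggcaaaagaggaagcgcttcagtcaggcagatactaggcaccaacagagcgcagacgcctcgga
Mybl2, chr2:163054385-163054634, plus strand: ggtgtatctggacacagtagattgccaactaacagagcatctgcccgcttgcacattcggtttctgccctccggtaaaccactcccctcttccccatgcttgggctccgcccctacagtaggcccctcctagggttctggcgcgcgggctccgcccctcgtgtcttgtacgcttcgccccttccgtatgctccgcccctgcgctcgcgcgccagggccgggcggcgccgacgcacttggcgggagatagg

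In these windows Top2a held 4 CHR and 6 CCAAT matches, Mki67 held 2 and 3, Ccnb2 held 1 and 3, and Kif11 and Smc2 held 1 of each. Mybl2 held neither. Over the full promoter entries, which reach 50 bases past the start, 30 of the 37 member promoters (81.1%) had a CHR match, against 19.2% of all 32851 promoters in the table. A CCAAT match was in 29 of 37 (78.4%), against 37.4% of all, and at least 2 CCAAT matches in 18 of 37 (48.6%), against 11.7%. The letters TTTGGCGC or TTTCGCGC, a strict form of the E2F site, were in 2 of 37 (5.41%), against 0.813% of all. No motif contains another. By gene, 25 of the 35 members had both CHR and CCAAT matches, and Birc5, Mybl2, Ncaph, Nuf2 and Nusap1 had neither. These are matches of letters in a window and not binding sites.

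The 42 genes shared 1 broad pattern over the 8 groups. They were low in FiMuSCs, high in AMuSCs and myoblasts and lowest in myotubes. Together they made up 0.642% ± 0.0148 (SD, n = 3) of the TMM-scaled counts in WT AMuSCs, 0.523% ± 0.0132 in WT myoblasts, 0.0467% ± 0.0162 in WT FiMuSCs and 0.0196% ± 0.0026 in WT myotubes. In *mdx* cells the shares were 0.438% ± 0.0809 in AMuSCs, 0.468% ± 0.0604 in myoblasts, 0.0528% ± 0.0044 in FiMuSCs and 0.0315% ± 0.0140 in myotubes. The mean level was highest in WT AMuSCs for 27 members, in WT myoblasts for 12 and in *mdx* myoblasts for 3. It was lowest in WT myotubes for 40 members, and in WT FiMuSCs for Racgap1 and Ube2c.

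**Figure D1:**
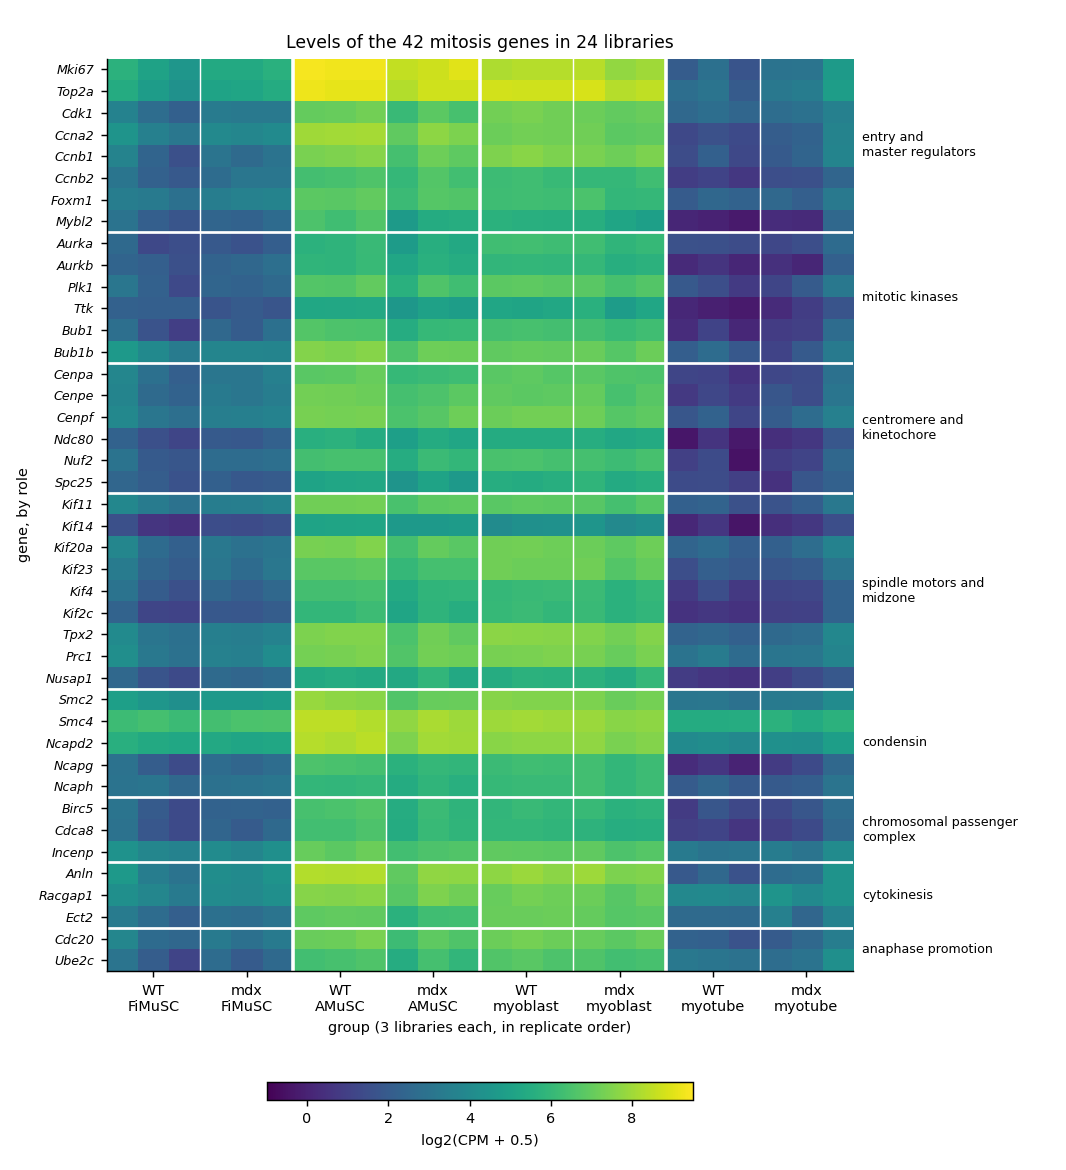
Heat map of the level of each of the 42 genes (rows, grouped by role) in each of the 24 libraries (columns, grouped by cell state and genotype), as log2(CPM + 0.5). AMuSC and myoblast columns are high and FiMuSC and myotube columns low for nearly all rows, and Smc4 stays the highest row in myotubes, at 43.2 to 44.4 CPM in the WT libraries.

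**Figure D2:**
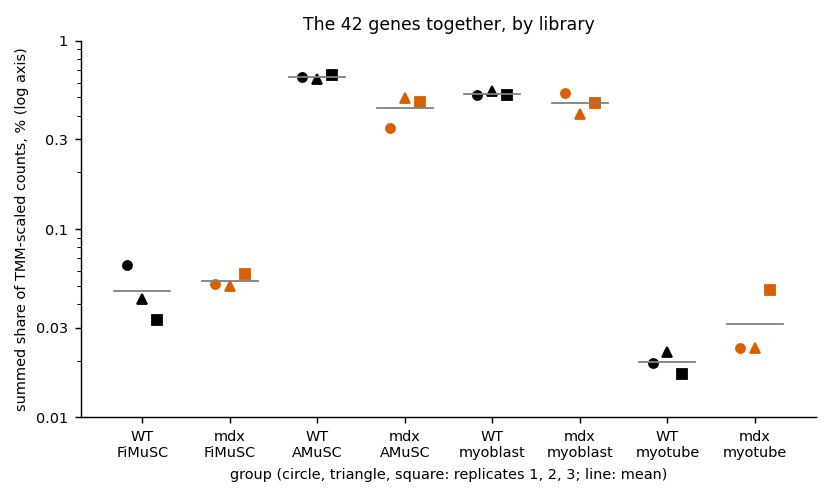
Summed share of the TMM-scaled counts (percent, log axis) held by the 42 genes, with 1 point per library in each of the 8 groups. The 3 WT AMuSC libraries lie above the 3 *mdx* AMuSC libraries, and 1 *mdx* myotube library, at 0.0477%, lies apart from the other 2.

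Levels between genes were compared per length, as TPM (counts scaled to transcript length and library total). In WT AMuSCs Cdk1, the kinase that drives entry into mitosis, had the highest level, at 198 ± 14.9 TPM (SD, n = 3). The condensin subunits Smc4 (159 ± 12.1 TPM) and Ncapd2 (156 ± 20.1 TPM) had the next values, and did not differ beyond their spread. Kif23, a motor of the central spindle, was at 132 ± 4.51 TPM and Top2a, the topoisomerase that untangles sister chromatids, at 126 ± 4.21 TPM. The median over the 42 genes was 42.5 TPM. The lowest level was that of the motor gene Kif14, at 7.53 ± 6.79 TPM, where the spread is nearly as large as the mean. The order rests on sums over transcripts and so partly on short ones. A retained-intron transcript of 378 bases held 52.4% of the summed TPM of Cdk1, a processed transcript of 392 bases 39.1% of that of Kif23, a retained-intron transcript of 480 bases 24.4% of that of Ncapd2, and a nonsense-mediated decay transcript of 557 bases 22.1% of that of Smc4.

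To see what injury did in normal muscle, WT AMuSCs were compared with WT FiMuSCs. All 42 genes rose, as did 31.6% of the 19359 genes tested (edgeR's quasi-likelihood test, Benjamini-Hochberg adjusted p under 0.05, as in each comparison that follows). The fold between mean CPM ranged from 4.46 for Smc4 to 27.2 for Ccnb1, with a median of 18.1. Mki67, which encodes the proliferation antigen Ki-67, was at 52.5, 32.6 and 22.7 CPM in the 3 FiMuSC libraries and at 661, 620 and 613 CPM in the AMuSC libraries, a log2 fold change of 4.23 ± 0.32 (SE). No AMuSC library came near the FiMuSC range.

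The group of entry regulators also holds Mki67 and Top2a. Its gene Ccnb1, which encodes cyclin B1, rose from 12.5, 4.72 and 2.44 CPM to 167, 176 and 192 CPM. The log2 fold change was 4.86 ± 0.60 (adjusted p = 0.00055, the largest adjusted p of the 42). Cdk1, the partner of cyclin B1, rose by 4.31 ± 0.40 on the log2 scale, Top2a by 4.34 ± 0.31 and the transcription factor gene Foxm1 by 3.83 ± 0.15. Of the kinases, Plk1 rose by 4.59 ± 0.50 and Aurkb by 4.11 ± 0.24. Ttk, the spindle checkpoint kinase also called MPS1, rose less, by 3.33 ± 0.10, but with the smallest adjusted p (3.1e-07). It was at 4.24, 3.98 and 4.08 CPM in FiMuSCs and at 37.8, 38.3 and 39.9 CPM in AMuSCs, so both groups were tight.

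The kinetochore genes Cenpa, which encodes the histone H3 variant of the centromere, and Ndc80, a microtubule-binding subunit, rose by 3.97 ± 0.44 and 4.17 ± 0.33. Birc5 (survivin, a subunit of the chromosomal passenger complex) rose by 4.49 ± 0.47. Anln (anillin, a scaffold of the cleavage furrow) rose by 4.54 ± 0.48, and Cdc20, an activator of the anaphase promoting complex, by 4.28 ± 0.40. The condensin genes had the lowest median of the 8 roles, 3.23. Smc2, Ncaph and Ncapd2 rose by 3.27, 3.23 and 3.01, and Ncapg by 4.43 ± 0.42. Smc4, at 73.0, 83.1 and 71.4 CPM in FiMuSCs and 351, 353 and 310 CPM in AMuSCs, rose by 2.25 ± 0.10.

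Markers of most other cells fell alongside. In WT, the summed level went from 2379 to 4674 CPM in FiMuSCs to 538 to 641 CPM in AMuSCs for fibro-adipogenic progenitors (6 of 7 markers lower), from 1779 to 1938 CPM to 382 to 459 CPM for pericytes (6 of 6 lower) and from 298 to 366 CPM to 22.7 to 53.1 CPM for endothelial cells (7 of 7 lower). Leukocyte markers went from 65.3 to 313 CPM to 8.91 to 28.0 CPM (9 of 11 lower), neutrophil markers from 39.1 to 283 CPM to 0.779 to 2.64 CPM (5 of 5 lower), erythroid markers from 152 to 573 CPM to 24.4 to 31.8 CPM (5 of 5 lower) and Schwann cell markers from 360 to 488 CPM to 129 to 177 CPM (5 of 5 lower). The MuSC markers went from 5211 to 5731 CPM to 2244 to 2261 CPM. The 10 markers of committed and differentiated muscle cells went up, from 206 to 299 CPM to 1647 to 2393 CPM. The 7 markers of mature myofibres were at 223 to 432 CPM before and 232 to 397 CPM after. The part of these markers in the result was not tested.

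In *mdx* cells the same comparison gave smaller values. All 42 genes rose, against 15.5% of the 19650 genes tested, and the fold between mean CPM ranged from 2.80 for Smc4 to 16.5 for Ccnb1 with a median of 10.1. The median log2 fold change of the 42 was 3.34, compared with 4.28 in WT. Mki67 rose by 3.28 ± 0.19, from 41.5, 41.5 and 50.9 CPM to 371, 417 and 515 CPM. Top2a rose by 3.38 ± 0.20, Cdk1 by 3.28 ± 0.22, Plk1 by 3.91 ± 0.28 and Ncapg by 3.33 ± 0.17. Smc4 had again the smallest rise, 1.49 ± 0.17. Here the summed markers went from 2819 to 3234 CPM to 1637 to 2450 CPM for fibro-adipogenic progenitors (5 of 7 lower), from 1420 to 2439 CPM to 1061 to 1332 CPM for pericytes (4 of 6 lower and 2 higher), from 274 to 704 CPM to 36.9 to 65.8 CPM for endothelial cells (7 of 7 lower) and from 290 to 545 CPM to 44.4 to 62.1 CPM for erythroid cells (5 of 5 lower). Leukocyte markers were at 414 to 1268 CPM before and 154 to 4434 CPM after, and neutrophil markers at 63.6 to 115 and 11.2 to 198 CPM, with none called in either list. Markers of committed and differentiated muscle cells went up in summed level, from 351 to 402 CPM to 742 to 1968 CPM. Those of mature myofibres went from 144 to 187 CPM to 256 to 401 CPM. The part of these markers in the result, and in the difference between the genotypes, was not tested.

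The difference between the 2 injury responses was tested in 1 model of 12 libraries. Of the 42 genes, 4 (9.52%) rose less in *mdx* than in WT, and none rose more. Of all 21086 genes tested, 6.98% had a lower response in *mdx* at the same threshold, a share near that of the members. The 4 were the condensin genes Smc2 (difference in log2 fold change -1.05 ± 0.24, adjusted p = 0.014) and Smc4 (-0.79 ± 0.18, adjusted p = 0.014), the kinase gene Aurkb (-1.12 ± 0.31, adjusted p = 0.032) and Foxm1 (-0.87 ± 0.25, adjusted p = 0.035). Smc2 encodes the partner of SMC4 in the condensin ring. It was at 29.6, 22.6 and 18.4 CPM in WT FiMuSCs and 24.6, 25.2 and 28.3 CPM in *mdx* FiMuSCs, then at 233, 212 and 195 CPM in WT AMuSCs and 99.3, 134 and 138 CPM in *mdx* AMuSCs. The FiMuSC ranges overlapped and the AMuSC ranges did not.

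All 42 differences lay below 0, with a median of -0.85, and 25 had an unadjusted p under 0.05, as did 30.0% of all genes in either direction. Mybl2 had the difference farthest from 0, -1.42 ± 0.44 (adjusted p = 0.051). Top2a had -0.99 ± 0.33 (adjusted p = 0.064) and Mki67 -0.97 ± 0.34 (adjusted p = 0.073). Ttk lay closest to 0, at -0.20 ± 0.20 (adjusted p = 0.57). The count of 4 changed with single libraries. It was 35 without WT FiMuSC replicate 1 (6.87% of all genes lower) and 10 by DESeq2 (10.5% lower), but 2, Smc2 and Smc4, without WT FiMuSC replicate 2 or 3, WT AMuSC replicate 1 or 3 or *mdx* FiMuSC replicate 2 or 3. In that order, 4.45%, 3.39%, 4.01%, 4.07%, 3.77% and 3.69% of all genes were then lower.

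**Figure D3:**
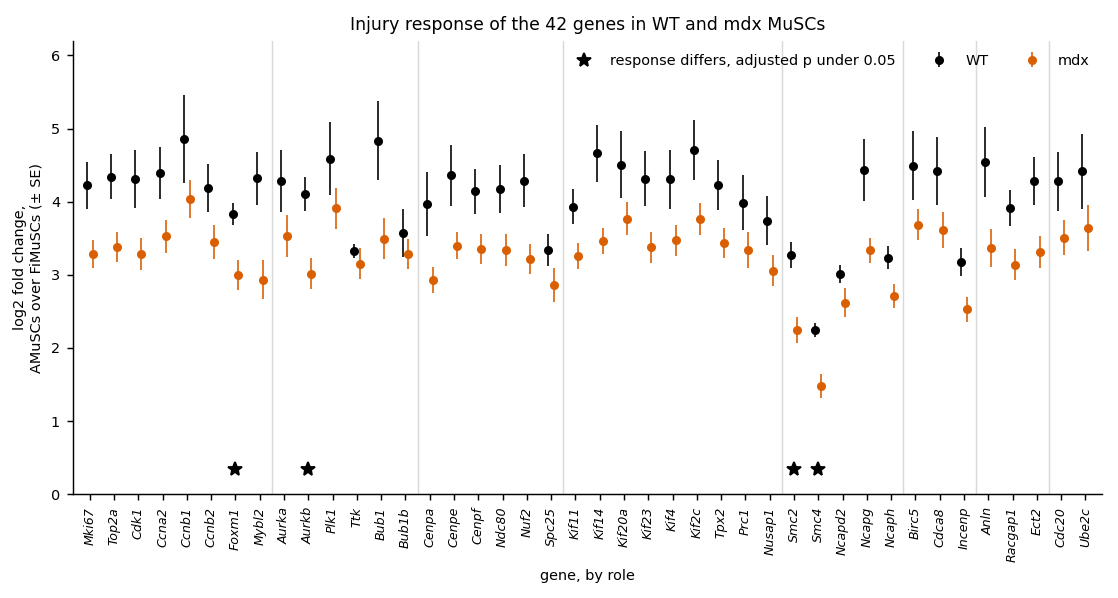
Log2 fold change of each of the 42 genes, AMuSCs against FiMuSCs, in WT and in *mdx* (points, bars are ± 1 SE, 3 libraries per group), with stars on the 4 genes whose responses differed at an adjusted p under 0.05. Every *mdx* point lies to the lower side of its WT point, and Smc4 has the smallest response in both genotypes.

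The comparison of *mdx* with WT AMuSCs showed the genotypes side by side after injury. Compared to WT, 30 of the 42 genes were lower in *mdx* AMuSCs and none was higher, whereas 8.95% of the 19321 genes tested were lower and 14.8% higher. The median log2 fold change of the 42 was -0.57, against 0.04 for all genes. The mean *mdx* level was between 42.6% (Mybl2) and 109% (Nusap1) of the WT level, with a median of 68.7%. For 39 members the 3 *mdx* libraries all lay below the 3 WT libraries, as they did for 17.4% of all genes.

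Of the 8 genes in the group of entry regulators, with Mki67 and Top2a among them, 6 were lower. Mybl2, which encodes B-MYB, changed most, from 93.4, 76.6 and 100 CPM in WT to 26.1, 43.0 and 46.2 CPM in *mdx* (log2 fold change -1.26 ± 0.22, adjusted p = 0.0084). Mki67 fell by 0.56 ± 0.16 (adjusted p = 0.043), and its libraries did not overlap. Cdk1 was at 131, 133 and 155 CPM in WT and 68.6, 116 and 86.0 CPM in *mdx* (-0.66 ± 0.18, adjusted p = 0.033). Ccnb1 fell by 0.66 ± 0.18 (adjusted p = 0.038) and Top2a by 0.57 ± 0.16 (adjusted p = 0.037). Foxm1 did not pass, at -0.40 ± 0.16 (adjusted p = 0.11), and neither did Ccnb2 (cyclin B2), which was at 81.7, 85.8 and 97.3 CPM in WT and 63.8, 102 and 79.6 CPM in *mdx*.

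Of the 6 kinase genes, 5 were lower, among them Bub1b, which encodes the checkpoint protein BUBR1 (-0.57 ± 0.17, adjusted p = 0.045), and Aurkb (-0.48 ± 0.13, adjusted p = 0.038). Plk1 had -0.58 ± 0.22 and an adjusted p of 0.088. Of the 6 centromere and kinetochore genes, 3 were lower. Cenpa had the smallest adjusted p of all 42 members. It was at 111, 114 and 132 CPM in WT and 65.4, 71.5 and 75.7 CPM in *mdx* (-0.77 ± 0.12, adjusted p = 0.0055). Cenpe, a kinetochore motor, fell by 0.61 ± 0.15 (adjusted p = 0.024), and Ndc80 had -0.44 ± 0.15 (adjusted p = 0.067).

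Of the 9 spindle motors and midzone genes, 7 were lower. Kif11, the motor that separates the spindle poles, fell by 0.51 ± 0.13 (adjusted p = 0.029), Kif20a by 0.66 ± 0.17 (adjusted p = 0.030) and Kif23 by 0.58 ± 0.14 (adjusted p = 0.021). Nusap1, which bundles spindle microtubules, was the 1 member above 0, at 41.3, 44.7 and 41.4 CPM in WT and 39.5, 59.4 and 39.4 CPM in *mdx* (0.09 ± 0.16, adjusted p = 0.75). Its sign turned without *mdx* replicate 2.

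Among the 5 condensin genes, Smc2 fell by 0.81 ± 0.16 (adjusted p = 0.011), Ncapg by 0.65 ± 0.12 (adjusted p = 0.0085) and Smc4 by 0.47 ± 0.14 (adjusted p = 0.047). All 3 genes of the chromosomal passenger complex were lower, with Birc5 at -0.74 ± 0.16 (adjusted p = 0.015) and Incenp at -0.52 ± 0.14 (adjusted p = 0.031). Of the 3 cytokinesis genes, Ect2, which activates RhoA at the cell equator, fell by 0.84 ± 0.17 (adjusted p = 0.013) and Anln by 0.78 ± 0.21 (adjusted p = 0.033). Cdc20 fell by 0.67 ± 0.18 (adjusted p = 0.033), whereas Ube2c, the ubiquitin-conjugating enzyme that works with the anaphase promoting complex, had -0.52 ± 0.20 (adjusted p = 0.099).

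Markers of other cells moved with this comparison. The summed level of 11 leukocyte and macrophage markers was 8.91 to 28.0 CPM in WT AMuSCs and 154 to 4434 CPM in *mdx* AMuSCs, with none of the 11 at 0 and 6 of them higher. The 5 neutrophil markers summed to 0.779 to 2.64 CPM in WT and 11.2 to 198 CPM in *mdx*. The 7 markers of fibro-adipogenic progenitors summed to 538 to 641 CPM and 1637 to 2450 CPM, with 5 higher, and the 6 pericyte and smooth muscle markers to 382 to 459 CPM and 1061 to 1332 CPM, with 4 higher. Endothelial markers summed to 22.7 to 53.1 and 36.9 to 65.8 CPM, erythroid markers to 24.4 to 31.8 and 44.4 to 62.1 CPM, Schwann cell markers to 129 to 177 and 200 to 289 CPM, lymphocyte markers to 1.22 to 2.25 and 1.31 to 2.98 CPM, and markers of mature myofibres to 232 to 397 and 256 to 401 CPM. The 10 markers of committed and differentiated muscle cells summed to 1647 to 2393 CPM in WT and 742 to 1968 CPM in *mdx*. The 9 MuSC markers themselves summed to 2244 to 2261 CPM in WT and 3077 to 3877 CPM in *mdx*, with 6 higher and 1 lower. The part of these markers in the result was not tested.

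The library with 4434 CPM of leukocyte markers, *mdx* AMuSC replicate 1, was also the lowest of the 3 *mdx* libraries in 40 of the 42 members, with a median of 0.704 times the mean of the other 2. Without it 24 members were lower, against 6.95% of all genes, and the median was -0.45. The count of 30 fell to 2, 4 and 4 without WT replicate 1, 2 or 3, where 1.76%, 2.88% and 1.9% of all genes were lower, and to 19 without *mdx* replicate 3, where 7.74% were. It fell to 14 with an offset for transcript length (5.12% of all genes lower) and to 8, or 19.0%, when all 24 libraries shared 1 estimate of spread, where 16.0% of all genes were lower, whereas DESeq2 called 37 (12.9% of all genes lower).

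**Figure D4:**
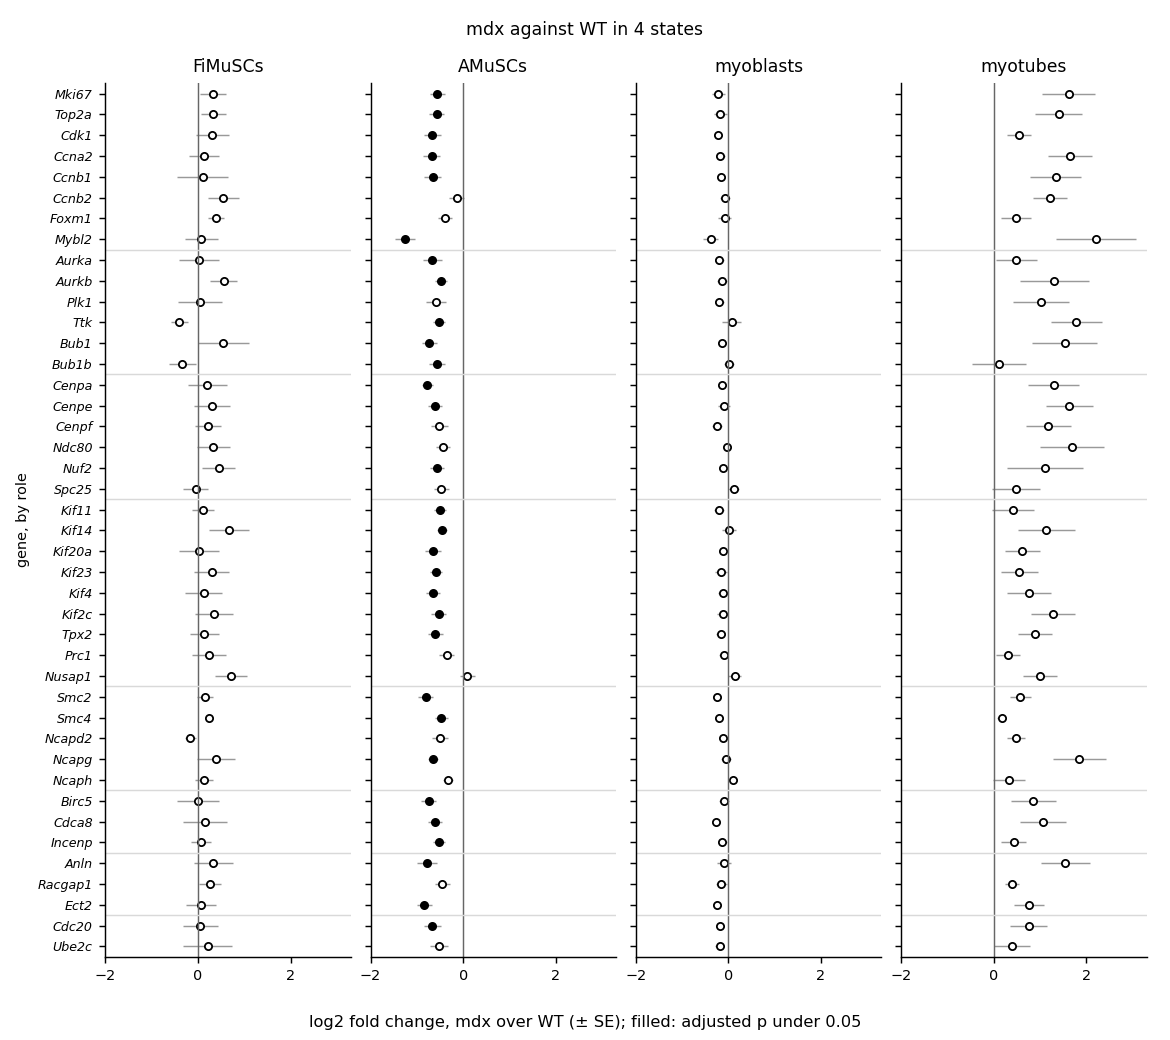
Log2 fold change, *mdx* against WT, of each of the 42 genes in FiMuSCs, AMuSCs, myoblasts and 2-day myotubes (bars are ± 1 SE, 3 libraries per group), with filled points at an adjusted p under 0.05. Filled points occur in the AMuSC panel alone, where 41 of 42 lie below 0, and in myotubes all 42 lie above 0 with wide bars.

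In FiMuSCs no member differed between genotypes by edgeR or by DESeq2, whereas 9.67% of the 19406 genes tested did by edgeR, and 8.74% were higher and 5.62% lower by DESeq2. At an unadjusted p under 0.05 edgeR gave 1 member and 25.6% of all genes in either direction. The median log2 fold change was 0.20, and the values ran from -0.40 ± 0.19 for Ttk (adjusted p = 0.24) to 0.72 ± 0.35 for Nusap1 (adjusted p = 0.26). Smc4 had the smallest p, at 73.0, 83.1 and 71.4 CPM in WT and 80.7, 92.1 and 94.2 CPM in *mdx* (0.24 ± 0.09, adjusted p = 0.18). The groups overlapped for Smc4, as for every member except Ttk, which was lower in all 3 *mdx* libraries, as were 16.3% of all genes.

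This comparison depended on single WT libraries. WT FiMuSC replicate 1 was the highest of the 3 WT libraries in 40 of the 42 members, with a median of 2.17 times the mean of the other 2. Ccnb1 was at 12.5 CPM in it and at 4.72 and 2.44 CPM in the others. Without it, the median log2 fold change was 0.68, and 5 members (Nuf2, Nusap1, Anln, Kif14 and Cenpe) were higher in *mdx*, against 5.32% of all genes. At an unadjusted p under 0.05, 28 members were then higher, beside 26.7% of all genes in either direction. Values above 0 were found for 40 of the 42, against 38 with all libraries. WT replicate 3 was the lowest in 40 members, with a median of 0.522 times the mean of the other 2, and without it the median log2 fold change was -0.02 with 19 of 42 above 0. Leaving out WT replicate 2 gave a median of 0.10, as did leaving out *mdx* replicate 3. In WT replicate 1 the summed erythroid markers were at 573 CPM, against 210 and 152 CPM in the other WT libraries, and the summed markers of fibro-adipogenic progenitors at 2379 CPM, against 4085 and 4674 CPM. In *mdx* replicate 1 the erythroid markers were at 545 CPM, against 290 and 380 CPM. The 42 genes held 0.0511% of its scaled counts, against 0.0496% and 0.0578%. Between the genotypes, leukocyte markers summed to 65.3 to 313 CPM in WT and 414 to 1268 CPM in *mdx* FiMuSCs, with 7 of 11 higher and none at 0, and markers of committed muscle cells to 206 to 299 and 351 to 402 CPM, with 3 of 10 higher. Markers of mature myofibres summed to 223 to 432 CPM in WT and 144 to 187 CPM in *mdx*. The part of these markers in the result was not tested.

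Cultured myoblasts had levels near those of AMuSCs. The fold between mean CPM in WT myoblasts and WT AMuSCs ran from 0.497 for Mki67 to 1.29 for Aurka, with a median of 0.892. Mki67 was at 298, 322 and 322 CPM in WT myoblasts, below all WT AMuSC libraries. The myoblast libraries all lay above the AMuSC libraries for 6 members, Aurka, Ect2, Kif23, Ncaph, Spc25 and Tpx2 (28.3% of 22319 genes did), and all below for 22 members (31.2% of genes did). As the kits and conditions differed, these values were not tested.

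Between *mdx* and WT myoblasts no member differed by edgeR or by DESeq2, and 0.36% of the 17226 genes tested did by edgeR, while 3.01% were higher and 1.87% lower by DESeq2. At an unadjusted p under 0.05 edgeR gave 4 members and DESeq2 6, and in either direction 14.4% and 16.8% of all genes. The median log2 fold change was -0.13, from -0.38 ± 0.16 for Mybl2 (adjusted p = 0.35) to 0.13 ± 0.14 for Nusap1 (adjusted p = 0.72). Cdca8 (borealin), another subunit of the chromosomal passenger complex, had the smallest p. It was at 62.1, 61.9 and 57.9 CPM in WT and 54.4, 46.6 and 47.6 CPM in *mdx* (-0.28 ± 0.08, adjusted p = 0.23), without overlap. For 11 members the *mdx* libraries all lay below the WT libraries, as for 10.4% of all genes. The *mdx* replicate 2 was the lowest of its group in 40 members and had 181 CPM of summed leukocyte markers, against 3.04 and 6.24 CPM. Its summed markers of committed and differentiated muscle cells were at 2222 CPM, against 1290 and 1538 CPM. Those of mature myofibres were at 264 CPM, against 70.7 and 66.7 CPM. Fibro-adipogenic progenitor markers summed to 958 CPM, against 544 and 677 CPM, and erythroid markers to 36.75 CPM, against 0.155 and 2.50 CPM. Schwann cell markers were at 284 CPM, against 242 and 305 CPM. The part of these markers in the result was not tested. Without *mdx* replicate 2 the median was -0.05. Without *mdx* replicate 1 the median was -0.23 and 24 members had an unadjusted p under 0.05, as did 20.4% of all genes in either direction.

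On differentiation, the genes fell in both genotypes. In WT all 42 fell, as did 34.5% of the 16907 genes tested (44.2% with scaling by library totals alone), with a median log2 fold change of -5.42. The mean level left in myotubes was 0.985% of the myoblast level for Mybl2 and 17.4% for Smc4, with a median of 2.32%. Mybl2 went from 51.5, 49.3 and 46.9 CPM in myoblasts to 0.604, 0.507 and 0.344 CPM in myotubes, a log2 fold change of -6.64 ± 0.16. The log2 fold change was -6.14 ± 0.35 for Mki67, -6.05 ± 0.29 for Ccnb1, -6.31 ± 0.15 for Aurkb and -6.55 ± 0.18 for Ncapg. Ect2 had the smallest adjusted p (-4.61 ± 0.06, adjusted p = 4.6e-08).

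The members that kept most were from several roles. Racgap1, which works with Kif23 in the central spindle, kept 10.0% (-3.31 ± 0.09), Ube2c 7.86% (-3.66 ± 0.10), and the condensin genes Ncapd2 and Ncaph 7.64% and 5.94%. Smc4 remained at 43.2, 43.5 and 44.4 CPM in myotubes, down from 246, 260 and 247 CPM (-2.51 ± 0.06). The lowest estimated count of any member in a WT myotube library was 7 (Nuf2), so the lowest levels rest on few reads. The 10 markers of committed and differentiated muscle cells rose from 1944 to 4039 CPM to 47352 to 49034 CPM in summed level (9 of 10 higher), while those of fibro-adipogenic progenitors were at 596 to 738 CPM and 115 to 191 CPM, with 1 of the 5 tested lower. The part of these markers in the result was not tested.

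In *mdx* cells all 42 genes fell on differentiation, as did 26.5% of the 17206 genes tested (36.9% with library totals alone). The median log2 fold change was -4.27, and the level left was between 3.41% (Nuf2) and 22.7% (Smc4) of the myoblast level, with a median of 5.10%. Nuf2, a partner of NDC80, fell by 4.83 ± 0.54 and Smc4 by 2.12 ± 0.14. Prc1, which cross-links midzone microtubules, had the smallest adjusted p (-3.97 ± 0.23, adjusted p = 7.1e-05). Mki67 fell by 4.27 ± 0.56 and Mybl2 by 4.00 ± 0.86. Markers of committed and differentiated muscle cells went from 1290 to 2222 CPM to 37495 to 43127 CPM.

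**Figure D5:**
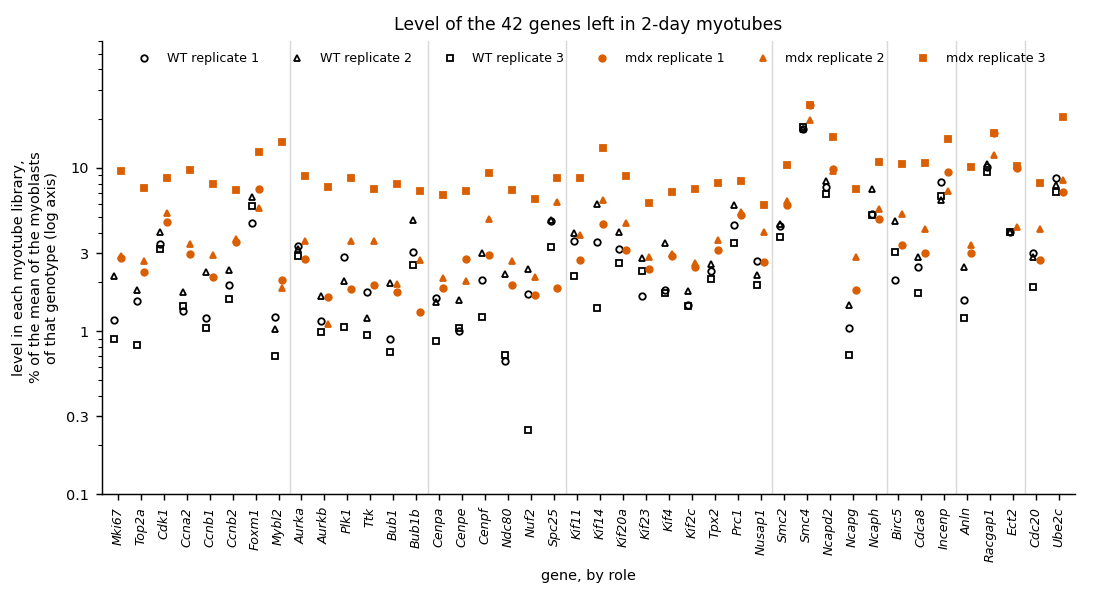
Level of each of the 42 genes in each myotube library as a percent of the mean level in myoblasts of the same genotype (log axis), with 1 point per library and genotypes marked. Smc4 keeps the most, 17.4% in WT and 22.7% in *mdx* on average, and *mdx* replicate 3 is the highest *mdx* point for 41 of 42 genes.

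In the direct comparison of *mdx* with WT myotubes all 42 log2 fold changes lay above 0, with a median of 0.94, but no member passed the edgeR test, in which 0.591% of the 16084 genes tested were called and 0.373% were higher. At an unadjusted p under 0.05, 18 members were higher, against 13.6% of all genes in either direction, and DESeq2 called 6 members (2.35% of all genes higher). Ccna2 (cyclin A2) had the smallest p, at 1.96, 2.54 and 2.10 CPM in WT and 3.81, 4.42 and 12.5 CPM in *mdx* (1.64 ± 0.47, adjusted p = 0.23). Mybl2 had the farthest value, 2.21 ± 0.86 (adjusted p = 0.34), from *mdx* libraries at 0.763, 0.682 and 5.34 CPM. Mki67 was at 3.68, 6.83 and 2.79 CPM in WT and 7.54, 7.77 and 25.8 CPM in *mdx* (1.62 ± 0.58, adjusted p = 0.31). Ncapg had 1.85 ± 0.57, Cenpe 1.63 ± 0.51 and Top2a 1.41 ± 0.51, with adjusted p between 0.26 and 0.32. Bub1b lay closest to 0, at 0.11 ± 0.59. For 16 members the *mdx* libraries all lay above the WT libraries, as for 11.4% of all genes.

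These values leaned on 1 library. The *mdx* myotube replicate 3 was the highest of its group in 41 of the 42 members, all but Racgap1, with a median of 2.55 times the mean of the other 2. Without it the median log2 fold change was 0.32, with no member called and 4 at an unadjusted p under 0.05 (11.9% of all genes in either direction). Its 10 markers of committed and differentiated muscle cells summed to 37495 CPM, against 40548 and 43127 CPM in the other *mdx* myotube libraries and 47352 to 49034 CPM in WT. Its 7 markers of mature myofibres summed to 9235.5 CPM, against 6778 and 10185 CPM in the other *mdx* libraries and 10539 to 14576 CPM in WT. The part of these markers in the result was not tested. Without *mdx* replicate 2, Ect2 was called.

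The test of the difference between the 2 differentiation responses called no member by edgeR, with 0.0592% of the 18585 genes called, while DESeq2 called 4 (1.03% of all genes higher). All 42 differences lay above 0, with a median of 1.09, and 25 had an unadjusted p under 0.05, as did 12.3% of all genes in either direction. Ccnb2 had the smallest p (1.35 ± 0.35, adjusted p = 0.21). Mybl2 had 2.68 ± 0.94 (adjusted p = 0.31) and Mki67 1.90 ± 0.65 (adjusted p = 0.31). The median was 0.56 without *mdx* myotube replicate 3, and Ect2 was called without *mdx* myotube replicate 2.

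Other genes of the cell cycle were read from 7 lists, and their counts stand beside the 8.95% of all genes that were lower and the 14.8% that were higher in *mdx* AMuSCs. In *mdx* AMuSCs, 37 of 41 genes of DNA replication and S phase were lower than in WT and none was higher, with a median log2 fold change of -0.88. Ccne2 (cyclin E2, -1.57 ± 0.16), Mcm10 (-1.30 ± 0.14) and Cdc6 (-1.53 ± 0.19), which act at replication origins or in their activation, had the smallest p of that list. Of 31 other centromere and kinetochore genes, 19 were lower (median -0.57), and of 15 other checkpoint and kinase genes 7, among them Cdc25a, a phosphatase that activates cyclin-dependent kinases (-1.23 ± 0.15), and Mad2l1, which encodes the checkpoint protein MAD2 (-0.80 ± 0.13). Of 23 other spindle and cytokinesis genes 9 were lower (median -0.49), and of 17 condensin II and cohesin genes 9, with Ncapg2, a condensin II subunit, at -0.76 ± 0.14. The list for the anaphase promoting complex, most of whose subunits do not cycle in level, also holds genes that are not subunits. It had 3 of 17 lower and a median of -0.13. The 3 were Fbxo5 (-0.90 ± 0.19), Ube2s (-0.80 ± 0.20) and the subunit gene Anapc15 (-0.56 ± 0.16).

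The regulators that background knowledge ties to such promoters were mixed. Of 19 genes of DREAM, MuvB and related E2F and RB family proteins, 10 were lower and 2 higher in *mdx* AMuSCs. Tfdp1, the dimer partner of E2F factors, was at -0.91 ± 0.15, E2f1 at -0.73 ± 0.12 and Rbl1, which encodes p107, at -0.62 ± 0.12. The test of the difference between injury responses called 32 of the 41 S phase genes lower in *mdx*, 12 of the 31 kinetochore genes and 5 of the 19 regulators, beside 6.98% of all genes, with Rbl1 at -1.26 ± 0.16. Rbl2, which encodes the DREAM subunit p130, was the 1 regulator with a higher response in *mdx* (0.87 ± 0.17, adjusted p = 0.0067).

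The genes most like the 42 were sought over the 8 group means. Likeness was the root mean square difference, on the log2 scale, between a gene's centred profile and the mean profile of the 42. Among 22319 genes the 10 closest that are not members were Shcbp1 (0.147), Kif22 (0.158), Sgo1 (0.170), Aspm (0.175), Hmmr (0.181), Tk1 (0.189), Ska3 (0.190), Knstrn (0.190), Ckap2l (0.198) and Cdca5 (0.199). The median of the members was 0.386, and 45 other genes lay closer than that. Cenpf, a kinetochore protein, lay at 0.106.

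Some members share sequence with other genes, so that estimated counts could be split. Ccnb1 has pseudogenes up to 99.2% identical, but the highest level among them was 0.533 CPM. Ndc80 has a pseudogene, 2700099C18Rik, which reached 9.98 CPM, and Ube2c has Gm8956, which reached 4.19 CPM. Ccna2, Kif20a, Kif4, Ncapg and Prc1 overlap the neighbouring genes Exosc9, Cdc23, Pdzd11, Lcorl and Rccd1. As the strand setting used for counting is not given in the sources used here, the levels of these 5 members are uncertain to that extent.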

How the data were processed

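Poly(A) RNA from 24 samples was sequenced. Per the labels, libraries were made with a directional kit, and Salmon 0.13.1, DESeq2 and GRCm38 are listed in the notes of the submitters, without roles. The authors deposited estimated counts and TPM (counts scaled to transcript length and library total) for each transcript. Gene values here are sums over transcripts, with the summed estimated counts rounded to whole numbers.

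Genes were kept by edgeR's filterByExpr, libraries were scaled by TMM, and groups were compared with edgeR 4.0.16 (R 4.3.3) by its robust quasi-likelihood test, with p-values adjusted by Benjamini-Hochberg over all genes tested and a threshold of 0.05. Each comparison used its own 6 libraries, and each difference of responses 12. Standard errors come from the log2 fold change and its F statistic. CPM were scaled over all 24 libraries. The steps were tested on simulated counts, where small changes were often missed. For the genotype tests, 2-fold changes were recovered in 23.9% (AMuSC), 29.9% (FiMuSC), 40.3% (myoblast) and 41.8% (myotube) of cases. The values for 1.5-fold changes were 0%, 2.99%, 13.4% and 14.9% in that order. The differences of responses recovered 7.46% (injury) and 19.4% (differentiation) of 2-fold changes, and 0% of 1.5-fold ones. Changes were planted in 200 genes drawn at random from all genes tested, and the other genes had none. The rates are therefore not those of the members, or of data in which many genes change. In AMuSCs, 30 of the 42 members were called, with a median log2 fold change of -0.57. Where no member was called, changes of these sizes can still have been missed, at a rate that was not tested. Alternatives were DESeq2 1.42.0, other scaling, no filter, an offset for transcript length, 1 fit of 24 libraries, a replicate block and leaving out each library. A promoter match was taken on either strand of RefSeq windows of 300 bases.

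The members and gene lists were chosen with earlier results of these data known. All 42 members could be named, with full statistics for a fixed list of 22 and for those with the farthest value or the smallest p in a comparison. The study calls its triplicates biological, without tying libraries to single animals. The p-values set a difference between groups against the spread between these samples, which is estimated partly over all genes tested. Replicate numbers were not used to pair the samples, except in the replicate block.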

Additional observations from a re-analysis of the deposited data

Results flagged for a closer look

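The injury response differed between genotypes, by the test of the difference itself, for 4 of the 42 genes. These 4 (9.52% of the 42) had a lower response in *mdx*, as did 6.98% of all 21086 genes tested, so the 2 shares lay near each other. The difference in log2 fold change, *mdx* minus WT, was -0.87 for Foxm1, -1.12 for Aurkb, -1.05 for Smc2 and -0.79 for Smc4, with adjusted p between 0.014 and 0.035 (edgeR's quasi-likelihood test). Smc2 and Smc4 passed under all 19 other settings run, with values of -1.41 to -0.92 and of -0.90 to -0.69. Foxm1 and Aurkb each passed under 9 of the 19. The differentiation response differed for securin, Pttg1, a gene of the cohesin list and not one of the 42, whose difference was -4.58 (adjusted p = 0.036). It passed under 6 of its 19 other settings, and its value lay between -5.05 and -4.18 in all of them.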

How the results depend on the processing

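The counts of members called kept within 1.5 times of their main value under every alternative run for both injury responses, both differentiation responses and the myoblast comparison. For AMuSCs the count of 30 became 14 with the transcript length offset and 8 with all 24 libraries in 1 fit, and ranged from 2 to 38 when 1 library was left out. The 38 were called without *mdx* replicate 2, where 3056 of 20290 genes were lower. For FiMuSCs leaving out 1 library gave 0 to 5 members in place of 0. For myotubes the count of 0 became 6 with DESeq2 and 5 with all 24 libraries in 1 fit, and 0 to 1 without 1 library. In that fit of 24 libraries 205 of 16084 genes were higher. Without *mdx* replicate 2, where 1 member was called, 73 of 16552 genes were higher. For the difference of injury responses the count of 4 became 10 with DESeq2, 2 with the length offset and 2 with the replicate block, and 2 to 35 without 1 library. Those 2 are 4.76% of the 42. With the length offset 769 of 21086 genes were lower, and with the replicate block 1296 of 21086. For the difference of differentiation responses the count of 0 became 4 with DESeq2 and 0 to 1 without 1 library (1 without *mdx* myotube replicate 2, where 9 of 19711 genes were higher). The cause of these changes was not tested. The sign of Nusap1 turned in AMuSCs without *mdx* replicate 2 (range over libraries left out, -0.15 to 0.18) and in myoblasts without *mdx* replicate 3 (-0.025 to 0.26). The sign of Bub1b turned in myotubes with the length offset (-1.32), with the replicate block (-0.20), without WT replicate 3 (-0.07) and without *mdx* replicate 3 (range -0.77 to 0.51). It also turned in the difference of differentiation responses with the length offset (-1.34), without WT myotube replicate 3 (-0.0073) and without *mdx* myotube replicate 3 (range -0.73 to 0.53). Correlations between the deviations of same-numbered samples ran from -0.119 to 0.285, and those between other samples from -0.191 to 0.155. On WT differentiation they ran from 0.029 to 0.06 for same-numbered samples and from -0.056 to -0.002 for others. Whether replicate numbers pair the samples was therefore not settled. With the replicate block the AMuSC count was 20, and 1223 of all 19321 genes were lower. Scaling by library totals alone moved the median of all genes by -0.31 in WT and -0.33 in *mdx* on differentiation, by -0.15 in the WT injury response and by 0.11 in the difference of injury responses. Of the genes called on differentiation, the share that was lower went from 49.7% to 62.2% in WT and from 50.7% to 67.2% in *mdx*, and of those called in the difference of differentiation responses from 54.5% to 83.3%. The lowest estimated counts, 7 in WT and 22 in *mdx* myotubes, limit the precision there.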

Other observations

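Pttg1, which encodes securin, the inhibitor of separase, did not fall with the 42 genes on differentiation in WT, but it fell in *mdx*. It was chosen after its values were seen. In WT it was at 12.9, 12.9 and 14.97 CPM in myoblasts and at 17.7, 17.7 and 15.7 CPM in myotubes, a log2 fold change of 0.34 ± 0.10 (edgeR, adjusted p = 0.020). In *mdx* it was at 29.5, 33.7 and 42.5 CPM in myoblasts and at 0.469, 2.10 and 2.76 CPM in myotubes, and it fell by 4.28 ± 0.60 (adjusted p = 0.0016). It was higher in *mdx* than in WT myoblasts by 1.39 ± 0.15 (adjusted p = 0.024), without overlap. The WT differentiation call was lost in 8 of 13 other settings, where the value went down to 0.03 (adjusted p up to 0.81), and the myoblast call in 8 of 13 (adjusted p up to 0.27). In myotubes the *mdx* libraries lay below the WT libraries, with -3.26 ± 0.53 (adjusted p = 0.065).

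Several of the genes that lay closest to the 42 over the 8 groups encode partners of the same steps. Sgo1 (shugoshin) and Cdca5 (sororin) protect sister chromatid cohesion, Ska3 and Knstrn act at the kinetochore, and Aspm, Hmmr, Ckap2l and Kif22 act on the spindle. Tk1, a thymidine kinase of S phase, was the 1 gene of the replication list among the 10.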
